A study of Mus musculus with 6 samples.

Results

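The genes described here were 32 members of hepatic fatty acid oxidation and ketone body formation, together with regulators and marker genes of the same programme, taken by their symbols from the 21531 genes that could be compared between fasted and refed mouse liver. They comprise 2 transcriptional regulators, 5 genes of fatty acid activation and mitochondrial entry, 8 genes of the mitochondrial oxidation spiral, 2 auxiliary mitochondrial enzymes, 3 genes of electron transfer, 7 peroxisomal genes, 1 ketogenic enzyme and 4 linked genes. All 32 were measured, 30 under their own symbol and 2 under an older symbol, Eci1 as Dci and Eci2 as Peci, matched by their RefSeq accessions. With Bdh1 as the single ketogenic member, ketone body formation was described mainly through a separate list of 10 genes.

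Livers came from wild-type mice of 12 to 14 weeks, either fasted or refed, with 9 animals for each condition. RNA of 3 mice from 1 condition was combined for each Affymetrix Mouse Gene 1.0 ST array, a single-colour array that reports 1 signal per transcript cluster, so that each condition had 3 arrays, called fasted 1 to 3 and refed 1 to 3 below. How long the animals fasted or were refed, their sex and the hour of collection are not stated in the labels. The p-values measure the spread between pools, and variation among the mice of a pool cannot be seen.

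In the fasted state, fatty acids released from adipose tissue are taken up by hepatocytes, activated to their coenzyme A esters and carried into mitochondria as carnitine esters. There, a repeating spiral of dehydrogenation, hydration, a further dehydrogenation and thiolysis releases acetyl-CoA, which the liver can convert to the ketone bodies acetoacetate and 3-hydroxybutyrate for use by other organs. Peroxisomes run a parallel pathway that shortens very long and branched chains. The nuclear receptor PPARα, encoded by Ppara, binds fatty acids and regulates many genes of both pathways.

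Promoter sequences are shown for the 3 members that passed the test between conditions (Ppara, Acaa1b and Crot), for Acaa1a, the neighbouring close relative of Acaa1b, for Fabp1, the member promoter with a match to the binding repeat of PPARα, and for the stretch between Hadha and Hadhb, which encode both subunits of 1 enzyme and are transcribed away from each other. Sequences are from RefSeq (GRCm38.p6), 5′ to 3′ on the strand given, and each ends at the base before the gene's start, except the last, which is the 228 bases that the upstream windows of both genes share within the 272 bases between their first bases. Capitals mark matches, on either strand, to the repeat AGGNCANAGGNCA, to CCAAT (read as ATTGG on the other strand) or to the GC box GGGCGG.
Ppara chr15:85735526-85735775 (+ strand): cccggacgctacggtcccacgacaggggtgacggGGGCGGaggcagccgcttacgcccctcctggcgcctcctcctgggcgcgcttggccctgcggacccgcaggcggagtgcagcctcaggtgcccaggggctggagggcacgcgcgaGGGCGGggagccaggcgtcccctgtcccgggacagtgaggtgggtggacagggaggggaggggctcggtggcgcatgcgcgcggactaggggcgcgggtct
Acaa1b chr9:119157094-119157343 (- strand): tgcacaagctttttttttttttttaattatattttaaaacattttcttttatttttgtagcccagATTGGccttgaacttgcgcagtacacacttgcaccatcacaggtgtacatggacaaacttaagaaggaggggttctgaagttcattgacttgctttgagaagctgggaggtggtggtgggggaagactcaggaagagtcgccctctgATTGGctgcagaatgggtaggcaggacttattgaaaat
Acaa1a chr9:119341044-119341293 (+ strand): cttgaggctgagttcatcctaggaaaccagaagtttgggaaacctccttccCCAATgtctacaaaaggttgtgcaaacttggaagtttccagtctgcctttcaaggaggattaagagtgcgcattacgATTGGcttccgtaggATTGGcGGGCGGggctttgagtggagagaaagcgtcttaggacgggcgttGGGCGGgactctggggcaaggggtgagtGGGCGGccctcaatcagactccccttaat
Crot chr5:8997147-8997396 (- strand): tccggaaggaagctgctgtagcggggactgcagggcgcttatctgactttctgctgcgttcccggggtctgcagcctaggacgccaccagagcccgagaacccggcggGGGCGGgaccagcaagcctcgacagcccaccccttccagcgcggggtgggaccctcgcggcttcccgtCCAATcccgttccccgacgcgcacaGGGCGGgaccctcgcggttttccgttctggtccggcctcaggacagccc
Fabp1 chr6:71199629-71199878 (+ strand): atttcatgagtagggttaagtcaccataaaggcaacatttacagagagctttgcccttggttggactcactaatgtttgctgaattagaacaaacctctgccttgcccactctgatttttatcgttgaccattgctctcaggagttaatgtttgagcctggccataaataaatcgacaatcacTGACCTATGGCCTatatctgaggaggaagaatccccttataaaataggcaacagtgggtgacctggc
Hadha/Hadhb chr5:30155003-30155230 (+ strand): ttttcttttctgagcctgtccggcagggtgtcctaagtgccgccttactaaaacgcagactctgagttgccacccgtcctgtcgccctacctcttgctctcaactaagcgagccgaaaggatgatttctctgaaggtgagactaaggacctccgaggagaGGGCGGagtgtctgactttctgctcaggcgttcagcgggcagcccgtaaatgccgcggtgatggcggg

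In these sequences, the match in Fabp1 lay on the reverse strand with its first base 67 bases before the start. Ppara had GC boxes 216 and 101 bases before its start and no CCAAT. Acaa1b had CCAAT on the reverse strand at 185 and 38 bases and no GC box, whereas Acaa1a had 3 matches to CCAAT and 3 to the GC box. Crot had 1 CCAAT, at 74 bases, between GC boxes at 142 and 49 bases. In the sequences shown no 2 matches shared a base, although CCAAT on the reverse strand and the GC box can overlap.

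Upstream windows of 250 bases were available for 27 of the 32 members, in 30 windows. The PPARα repeat was found in 1 of these windows, that of Fabp1, and in 0.338% of all 32851 mouse windows. GGGCGG was found in 16 member windows (53.3%) against 32.7% of all windows, and CCAAT in 13 (43.3%) against 33.8%. TATAAA, left in lower case above, was found in the windows of Fabp1 and Fgf21 and in 12.4% of all windows. These are matches of letters in a short window and were not tested.

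The arrays were alike in scale, with medians of 6.73 to 6.81 on the log2 scale. Across all genes, fasted 3 and refed 2 deviated from their condition means in a like manner (Pearson's r = 0.447 across genes), and both arrays stood low for the members, as described below. This was the highest correlation of any fasted with any refed array, the others being -0.335 to 0.282. Such values depend on each other, since each deviation was taken from its condition mean. Of 12 hepatocyte markers, including albumin, none was called, and their mean level was 13.22 to 13.26 in fasted and 13.24 to 13.26 in refed arrays. All 7 Kupffer cell markers were lower in the fasted arrays (list means 8.19 to 8.27 against 8.33 to 8.57), and Vsig4 fell by 0.71 (log2, adjusted p = 0.00904, and 0.0543 without fasted 1). Of 6 cholangiocyte markers Sox9 fell by 0.53 (adjusted p = 0.0141), a call lost without fasted 1, fasted 2 or refed 3 (highest adjusted p = 0.0667). None of the adipocyte, endothelial, stellate, muscle, lymphocyte, pancreas or erythroid markers tested was called, and Adipoq, which defines adipocytes, had means of 4.28 in fasted and 4.33 in refed arrays. The part of these shifts in the results below was not tested, and in bulk tissue fewer cells of a type and less RNA per cell cannot be told apart.

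All 32 members had a higher mean in fasted than in refed liver, by 0.02 to 0.65 on the log2 scale. The median change was 0.22, or 1.17-fold, beside -0.01 over all genes tested. Ppara, Acaa1b and Crot rose at an adjusted p under 0.05 in limma, 3 of 32 members, where 3.02% of all 21531 genes were called, 1.4% higher and 1.62% lower in fasted liver. For 17 members every fasted array lay above every refed array, against 8.16% of all genes, and 15 members had an unadjusted p under 0.05 with higher fasted levels, against 6.38%. A positive change was found for 47% of all genes. Most members are abundant in liver, and all but Acaa1a, Pdk4 and Fgf21 had a mean above 10. Of the 2141 genes above that level, 51.2% had a positive change, 3.64% rose and 16.4% had fasted arrays entirely above refed arrays. An unadjusted limma p under 0.05 with higher fasted levels was found for 12.9% of them.

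**Figure D1:**
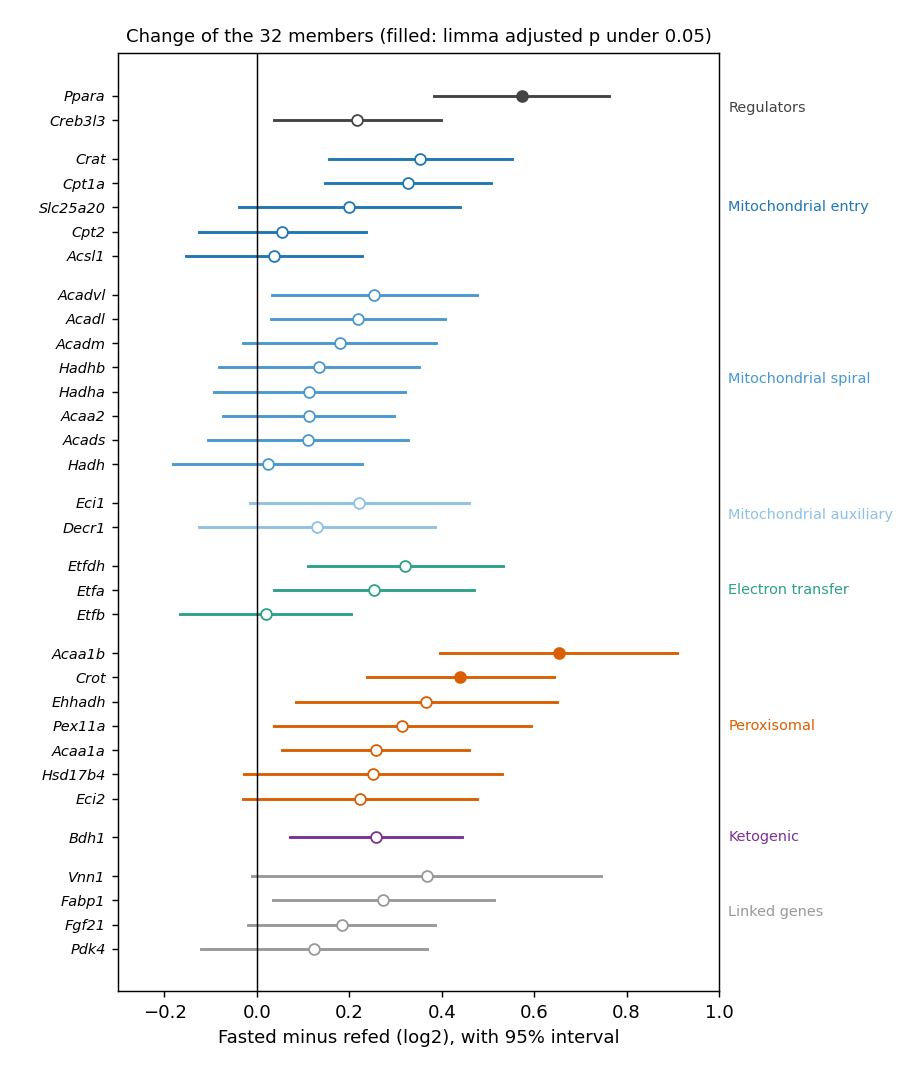
Change of each of the 32 members between conditions (horizontal axis, fasted minus refed on the log2 scale), grouped by step, with the 95% interval of the limma fit as a line. Every point lies to the right of 0, from 0.02 (Etfb) to 0.65 (Acaa1b), and the 3 filled points, Ppara, Acaa1b and Crot, have an adjusted p under 0.05.

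**Figure D2:**
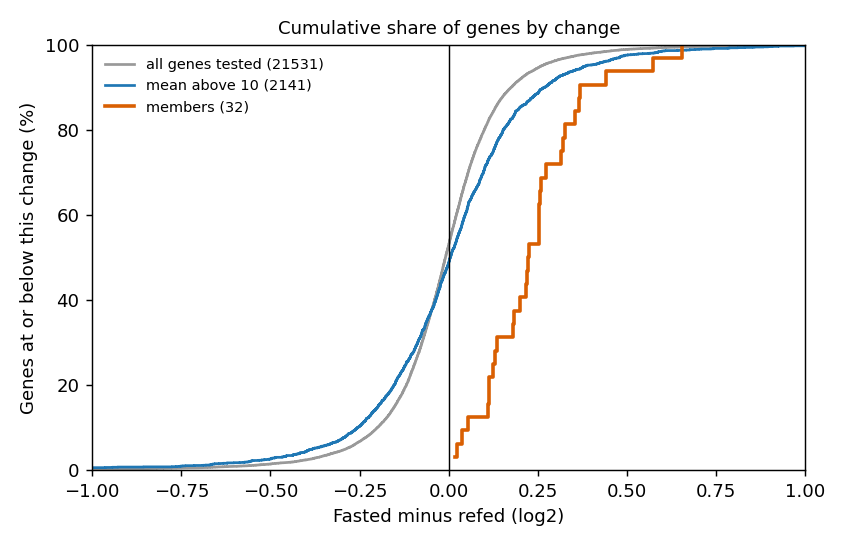
Cumulative share of genes (vertical axis, percent) at or below a given change (horizontal axis, fasted minus refed, log2; the axis is cut at -1 and 1) for the 32 members, the 2141 genes with a mean above 10 and all 21531 genes. The member curve starts to the right of 0 and has its median at 0.22, whereas both other curves are centred close to 0.

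The members were first examined at the level of their regulators. Ppara (NCBIM37 chr15:85566206-85633249) was measured at 11.87, 11.78 and 11.78 in fasted 1 to 3 and at 11.32, 11.18 and 11.21 in refed 1 to 3. The 3 fasted pools lay close together and well above every refed pool. The difference was 0.57 (95% interval 0.38 to 0.76), a 1.49-fold higher level with an adjusted p of 0.00499, and it remained called whichever array was left out (highest adjusted p = 0.0388, without fasted 1). Creb3l3, which encodes the membrane-bound transcription factor CREBH of hepatocytes, had fasted values of 10.93 to 11.02 and refed values of 10.72 to 10.77. Its groups did not overlap, but the change of 0.22 had an adjusted p of 0.235.

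The entry genes differed in the size of their change. Cpt1a, encoding the liver carnitine palmitoyltransferase of the outer mitochondrial membrane and the main point of control of entry, was at 12.84, 12.86 and 12.77 in fasted 1 to 3 and at 12.50, 12.50 and 12.48 in refed 1 to 3. The refed pools were almost equal and all lay below the fasted pools. The change of 0.33 (0.15 to 0.51) had an adjusted p of 0.0603, which passed the threshold under 3 of the other settings tried. Crat, carnitine acetyltransferase, which handles acetyl and other short acyl groups, had fasted values of 10.75 to 10.90 and refed values of 10.40 to 10.56, again without overlap, and a change of 0.35 (adjusted p = 0.0646). Slc25a20, the carnitine-acylcarnitine carrier of the inner membrane, overlapped between conditions (10.75 to 10.96 fasted, 10.45 to 10.78 refed), with a change of 0.20 (0.10 without refed 2) and an adjusted p of 0.475. Cpt2, which returns the acyl group to coenzyme A inside the mitochondrion, changed by 0.06 (adjusted p = 0.888). Acsl1, the main long-chain acyl-CoA synthetase of liver, changed by 0.04 (adjusted p = 0.941), and its sign turned when refed 2 was left out (-0.01).

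Within the mitochondrial spiral, no member of 8 was called by limma, 2 had an unadjusted p under 0.05, and changes ran from 0.02 to 0.25 with a median of 0.12. At such a p, 6.38% of all genes and 12.9% of those with a mean above 10 were higher in fasted liver. The acyl-CoA dehydrogenases carry out the opening step for chains of falling length. Acadl, the long-chain enzyme, had the smallest adjusted p of the spiral and was at 11.01, 10.94 and 10.93 in fasted 1 to 3 and at 10.81, 10.67 and 10.74 in refed 1 to 3. Its fasted pools all exceeded its refed pools, by a mean of 0.22 (0.03 to 0.41, adjusted p = 0.254). The enzyme for very long chains, Acadvl, changed by 0.25 (adjusted p = 0.264), with the lowest fasted pool barely above the highest refed pool, both 10.23 when rounded. The medium-chain and short-chain enzymes, Acadm and Acads, changed by 0.18 (adjusted p = 0.461) and 0.11 (adjusted p = 0.747), each with overlapping pools.

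The genes of the later steps of the spiral changed by 0.02 to 0.13, a range that overlapped the 0.11 to 0.25 of the acyl-CoA dehydrogenases. Hadha and Hadhb, the α and β subunits of the trifunctional protein, whose shared upstream stretch is printed above, changed by 0.11 (adjusted p = 0.718) and 0.13 (adjusted p = 0.659). Both overlapped between conditions, with changes of 0.05 for Hadha without fasted 2 and 0.08 for Hadhb without refed 2, and the Hadhb probes are of a cross-hybridising type. Hadh, the short-chain 3-hydroxyacyl-CoA dehydrogenase, was at 12.81 to 13.02 in fasted and 12.86 to 13.00 in refed pools, a change of 0.02 (adjusted p = 0.969) that turned to -0.02 without fasted 1. Acaa2, the mitochondrial thiolase that closes the spiral, had fasted values of 13.06 to 13.18 and refed values of 12.97 to 13.06. These did not overlap before rounding, and the change was 0.11 (adjusted p = 0.672).

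Auxiliary enzymes prepare unsaturated chains for the spiral. Eci1, an enoyl-CoA isomerase, was at 10.85, 11.14 and 10.81 in fasted 1 to 3 and at 10.82, 10.62 and 10.68 in refed 1 to 3. Fasted 2 stood apart, and fasted 3 lay just below refed 1. The change was 0.22 (-0.02 to 0.46, adjusted p = 0.396) and was 0.12 without fasted 2. Decr1, the 2,4-dienoyl-CoA reductase, changed by 0.13 (adjusted p = 0.747), a value that fell to 0.00 without refed 2.

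Electrons from the acyl-CoA dehydrogenases pass to the electron transfer flavoprotein and then to its dehydrogenase in the respiratory chain. Etfdh, the latter enzyme, was at 11.11, 11.15 and 11.00 in fasted 1 to 3 and at 10.87, 10.62 and 10.81 in refed 1 to 3. All fasted pools were above all refed pools, with a change of 0.32 (0.11 to 0.53, adjusted p = 0.118). The flavoprotein subunits gave unlike values. Etfa had fasted pools of 10.78 to 11.00 against refed pools of 10.53 to 10.77 and a change of 0.25 (adjusted p = 0.252), whereas Etfb had 12.23 to 12.34 against 12.22 to 12.33 and a change of 0.02 (adjusted p = 0.973). The difference between the changes of both subunits was not tested.

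**Figure D3:**
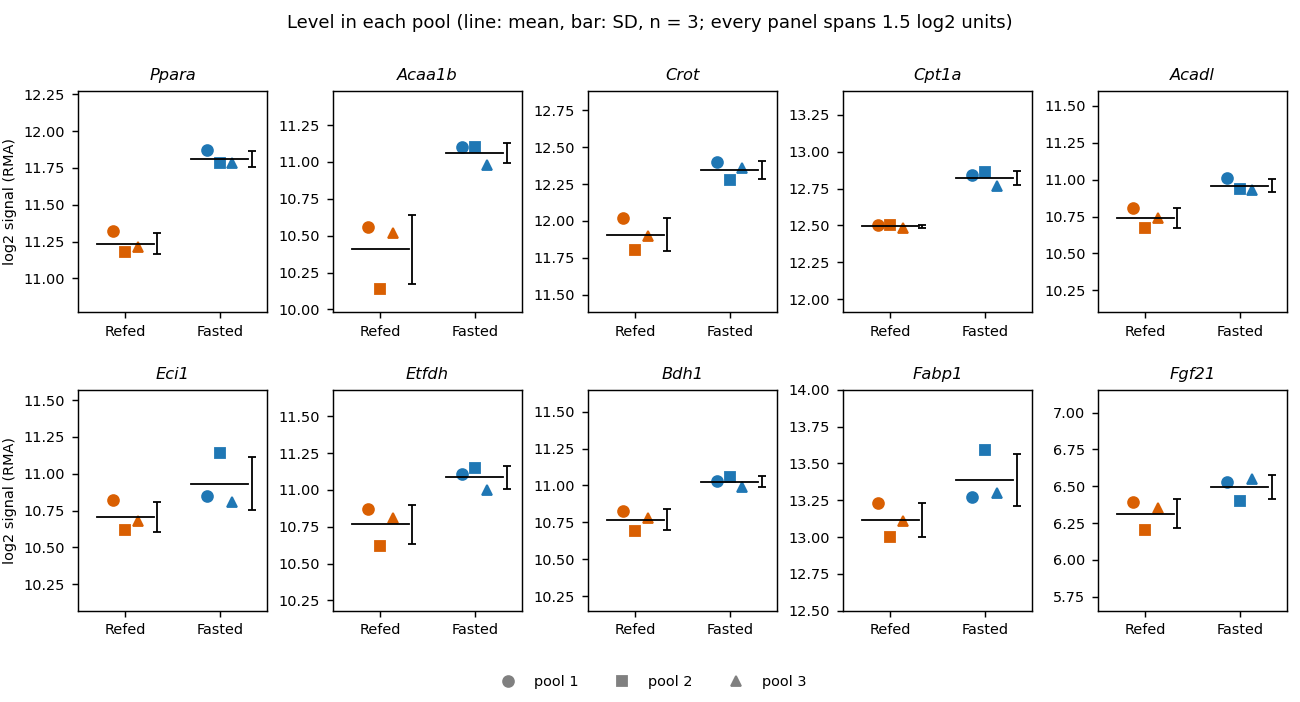
Level of 10 members in each pool (vertical axis, RMA log2 signal; every panel spans 1.5 units), refed in orange and fasted in blue, with the mean as a line and the SD of 3 pools as a bar. Fasted and refed pools are separate in 9 panels, by a wide margin for Ppara and narrowly for Fgf21 (lowest fasted 6.40, highest refed 6.39), and they overlap for Eci1.

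Among the 7 peroxisomal members 2 rose, against 1.4% of all genes and 3.64% of those with a mean above 10. For 5 of them the fasted pools lay entirely above the refed pools, against 8.16% and 16.4%, and changes ran from 0.22 to 0.65 with a median of 0.31. Acaa1b (NCBIM37 chr9:119057161-119066211), encoding thiolase B, which ends the peroxisomal spiral in rodents, was at 11.10, 11.10 and 10.98 in fasted 1 to 3 and at 10.56, 10.14 and 10.52 in refed 1 to 3. Fasted and refed pools were far apart, and refed 2 was much the lowest. The change of 0.65 (0.40 to 0.91), or 1.57-fold, was the largest of the 32 and had an adjusted p of 0.0125. It was 0.52 without refed 2, and the call was lost only without fasted 1 among the single arrays left out (0.63, adjusted p = 0.0717).

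Crot (NCBIM37 chr5:8966038-8997161), encoding the carnitine octanoyltransferase that converts chain-shortened products for export from the peroxisome, was at 12.40, 12.28 and 12.36 in fasted 1 to 3 and at 12.02, 11.80 and 11.90 in refed 1 to 3. The pools of each condition lay within a narrow range and did not overlap. The change of 0.44 (0.24 to 0.64), or 1.36-fold, had an adjusted p of 0.0277. This call was kept without refed 1 and lost without each of the other arrays, with adjusted p-values of 0.0565 to 0.127, although the change stayed between 0.39 and 0.50.

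The remaining peroxisomal members did not pass the threshold. Ehhadh, the L-bifunctional enzyme, varied most of the 32 among fasted pools (11.09, 11.41 and 10.87 in fasted 1 to 3), against 10.66 to 10.85 in refed pools, and its change was 0.37 (adjusted p = 0.194), or 0.23 without fasted 2. Its counterpart of the D pathway, Hsd17b4, changed by 0.25 (adjusted p = 0.425), with refed 2 low at 10.76 beside 11.15 to 11.26 in the other refed pools, and without that array the change was 0.10. Acaa1a, thiolase A, had fasted values of 9.28 to 9.43, all above refed values of 9.05 to 9.23, and a change of 0.26 (adjusted p = 0.204). Pex11a, a membrane protein of peroxisome division, had fasted values of 11.68 to 11.78, and its refed values of 11.12 to 11.67 lay below them (change 0.31, adjusted p = 0.272, and 0.17 without refed 2). Eci2, an enoyl-CoA isomerase found in peroxisomes and mitochondria, overlapped between conditions and changed by 0.22 (adjusted p = 0.437), or by 0.11 without refed 2.

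Pairs of related enzymes were then compared within each array. These 3 pairs were chosen after their values had been seen, and with 3 arrays against 3 the exact two-sided permutation test cannot give a p below 0.1. Acaa1b and Acaa1a, whose transcript clusters lie 184200 bases apart on chromosome 9 (NCBIM37), differed in their change by 0.40, with the gap between them wider in every fasted array than in any refed array (exact p = 0.1, adjusted over the 3 pairs 0.3). Both clusters are listed as free of cross-hybridisation, but how far their probes can tell the genes apart was not checked here. The octanoyl- and acetyltransferases Crot and Crat differed in change by 0.09 (exact p = 0.6, adjusted 0.6). Ehhadh exceeded Hsd17b4 in change by 0.11 (exact p = 0.5, adjusted 0.6).

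Bdh1, which interconverts acetoacetate and 3-hydroxybutyrate in the mitochondrial matrix, was at 11.03, 11.06 and 10.99 in fasted 1 to 3 and at 10.83, 10.69 and 10.78 in refed 1 to 3. Its fasted pools differed little among themselves and all lay above the refed pools. The change was 0.26 (0.07 to 0.44), with an adjusted p of 0.158, and it did not pass under any setting tried.

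Of the 10 other genes of ketone body metabolism, none rose in limma (1 at an unadjusted p under 0.05) and 1 fell, with a median change of 0.09. Over all genes, 1.4% rose and 1.62% fell, and 6.38% were higher at an unadjusted p under 0.05. Acat1, the mitochondrial acetoacetyl-CoA thiolase, changed by 0.15 (adjusted p = 0.557), Hmgcll1, a lyase outside the mitochondrion, by 0.08 (0.846) and the cytosolic dehydrogenase Bdh2 by 0.09 (0.866).

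The gene that fell was Slc16a6, a monocarboxylate transporter known in zebrafish to export 3-hydroxybutyrate from hepatocytes. It was at 6.96, 7.06 and 6.99 in fasted 1 to 3 and at 7.86, 7.73 and 8.06 in refed 1 to 3, with no overlap and more spread among refed pools. The change of -0.88 (-1.10 to -0.66), a 1.84-fold lower fasted level, had an adjusted p of 0.00125 and remained called whichever array was left out. The transporters Slc16a1 and Slc16a7 changed by -0.10 (adjusted p = 0.852) and 0.01 (adjusted p = 0.989). Oxct1, an enzyme of ketone body use that hepatocytes largely lack, changed by -0.17 (adjusted p = 0.392), and Aacs, which activates acetoacetate in the cytosol, by 0.11 (adjusted p = 0.888).

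The linked members are targets or partners of the pathway rather than oxidation enzymes, and none of the 4 was called by limma, with 1 at an unadjusted p under 0.05 (6.38% of all genes were higher at such a p). Fabp1, the abundant fatty acid binding protein of the hepatocyte cytosol, was at 13.27, 13.59 and 13.30 in fasted 1 to 3 and at 13.23, 13.00 and 13.11 in refed 1 to 3. Fasted 2 was the highest, and the other fasted pools lay only slightly above refed 1. The change was 0.27 (0.03 to 0.51, adjusted p = 0.265), or 0.17 without fasted 2. Fgf21, a hormone that the liver secretes on fasting, was at 6.53, 6.40 and 6.55 in fasted 1 to 3 and at 6.39, 6.20 and 6.35 in refed 1 to 3. Its values lay below the medians of the arrays, and the change of 0.18 (-0.02 to 0.39) had an adjusted p of 0.419. Vnn1, a pantetheinase that recycles pantothenate, the vitamin part of coenzyme A, had the widest refed spread of the 32, with 10.67, 9.87 and 10.43 in refed 1 to 3 against 10.61 to 10.85 in fasted pools. The change of Vnn1 was 0.37 (adjusted p = 0.371) and was 0.14 without refed 2. Pdk4, a kinase that inhibits pyruvate dehydrogenase, was at 7.97, 7.94 and 7.61 in fasted 1 to 3 and at 7.60 to 7.80 in refed pools, a change of 0.12 (adjusted p = 0.748).

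Steps of the pathway were set side by side as a description, since members are not replicates. The 18 mitochondrial members had a median change of 0.16, with none called by limma, 6 at an unadjusted p under 0.05 and 7 without overlap between conditions, and the 7 peroxisomal members a median of 0.31. Over all genes, 6.38% were higher in fasted liver at such a p, and 8.16% had fasted arrays entirely above refed arrays. For genes with a mean above 10 these shares were 12.9% and 16.4%. Within the mitochondrial group the medians were 0.20 for entry, 0.12 for the spiral, 0.18 for auxiliary enzymes and 0.25 for electron transfer. The peroxisomal mean, taken relative to its refed mean, was 0.41, 0.40 and 0.26 in fasted 1 to 3 and 0.13, -0.18 and 0.05 in refed 1 to 3. The mitochondrial mean was 0.20, 0.19 and 0.13 in fasted 1 to 3 and 0.06, -0.09 and 0.03 in refed 1 to 3. Peroxisomal members were thus farther from 0 than mitochondrial members in both conditions, within the refed pools as well as between conditions. With Eci2 counted as mitochondrial and Crat as peroxisomal, since both enzymes occur in both organelles, the medians were 0.16 and 0.35.

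**Figure D4:**
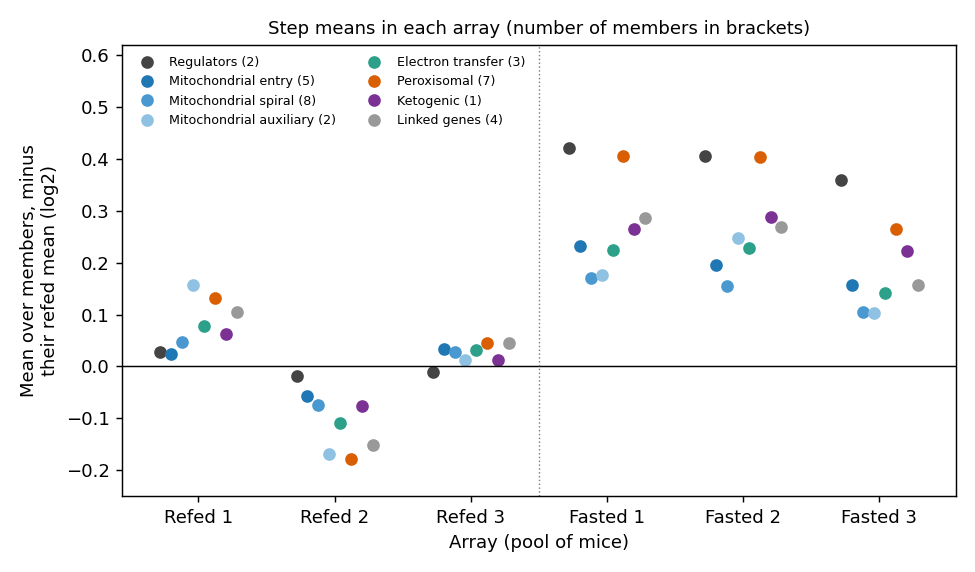
Mean of the members of each step in each array (vertical axis, log2, relative to the refed mean of the same members), with refed arrays on the left and fasted arrays on the right of the dotted line; the number of members is given in brackets. All 8 steps are at their lowest in refed 2 (-0.18 for peroxisomal members), and fasted 3 is the lowest fasted array for each of them.

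Members also varied together within a condition. Refed 2 had the lowest refed value for 27 of the 32 members (84.4%), against 33.2% of all genes, and lay on average 0.11 below the refed mean. Refed 1 had the highest refed value for 23 members (71.9%), against 31.6% of all genes. Among fasted arrays, fasted 3 was the lowest for 20 members (62.5%), against 32.7% of all genes, by an average of 0.06 below the mean. Without refed 2 the median change of the 32 was 0.17 and 29 were higher in fasted liver, the exceptions being Acsl1, Hadh and Etfb, with Acaa1b and Ppara called. When fasted 3 and refed 2 were both left out, an alternative chosen after the data had been seen, the median was 0.20, 30 were higher and Acaa1b and Ppara were called.

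Beyond the members, 5 lists of further pathway genes, 111 in all with the ketone body genes above, were examined by the same fit. Of these, 6 rose and 2 fell, where 1.4% and 1.62% of all genes did, and the median change was 0.13. The medians of the wider lists lay in another order than those of the member steps. The 28 further mitochondrial genes had a median change of 0.11, 23 of them higher in fasted liver and none called (7 at an unadjusted limma p under 0.05, of which 1 was lower), whereas the 31 further peroxisomal genes had a median of 0.01 with 16 higher (51.6%). Over all genes, 47% were higher in fasted liver, and 6.38% were higher at an unadjusted p under 0.05. Among genes with a mean above 10 these shares were 51.2% and 12.9%. The peroxisomal share with a positive change was thus near that of all genes. At an unadjusted limma p under 0.05, however, 6 of the 31 were higher (19.4%) and 2 lower. Fasted arrays lay entirely above refed arrays for 9 (29%), against 8.16% of all genes and 16.4% of those above 10, and entirely below for 2. Lonp2, a protease of the peroxisomal matrix, rose by 0.42 (adjusted p = 0.0461), a call that held without 1 of the arrays, fasted 3, and was lost without any other. Among 15 genes of peroxisome assembly the median was 0.14, and Pex16, which helps to place membrane proteins, rose by 0.50 (adjusted p = 0.0134, and 0.0744 without fasted 1).

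The list of 28 regulators and related genes held the largest increase of the 5 lists, with 4 genes that rose and 1 that fell. Ppargc1b, a coactivator of nuclear receptors including PPARα, was at 8.70, 8.65 and 8.52 in fasted 1 to 3 and at 7.70, 8.09 and 7.86 in refed 1 to 3. The pools of both conditions were well apart, and the rise of 0.74 (0.49 to 0.98, adjusted p = 0.00497) was called whichever array was left out. Its relative Ppargc1a rose by 0.63 (adjusted p = 0.0151), from 8.09 to 8.39 in refed pools to 8.63 to 8.96 in fasted pools. The nuclear receptor gene Nr1i3, encoding CAR, rose by 0.56 (adjusted p = 0.0164), and Pdk2, a pyruvate dehydrogenase kinase like Pdk4, by 0.40 (adjusted p = 0.0367). Foxa2, a transcription factor of liver, fell by 0.54 (adjusted p = 0.0212). The call of Ppargc1a was lost without fasted 1, fasted 2, refed 1 or refed 3 (highest adjusted p = 0.0885), and that of Nr1i3 without fasted 1 or refed 3 (highest 0.0925). Foxa2 was called only without refed 2 among the arrays left out in turn (highest 0.0875), and Pdk2 lost its call without any 1 of the 6 arrays (highest 0.158).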

How the data were processed

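Total RNA of wild-type mouse liver was hybridised to 6 Affymetrix Mouse Gene 1.0 ST arrays, 3 for each condition. The authors deposited log2 values of 34760 transcript clusters, made by RMA in Affymetrix Expression Console 1.3.1.187 per the submitters' processing notes. RMA corrects background, equalises the distributions of arrays and summarises probes, and it compresses differences of dim genes. Depth does not apply to arrays, and their number limits precision.

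Gene symbols and NCBIM37 positions were joined from an annotated table that the authors deposited for another comparison, livKOR against livWTR in its own terms. Its fold changes and p-values were not used, nor were 12 columns of values per array whose names fit no labelled sample. Its livWTR mean (log2, the authors' value) served to check identifiers, and 558 transcript clusters that differed from the refed mean by over 1 were left out. The brightest transcript cluster stood for each gene, which gave 21531 genes. Each member had 1 transcript cluster, and no member was lost to a filter.

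The fasted and refed arrays were fitted by lmFit and eBayes (limma 3.58.1, R 4.3.3, two-sided), with Benjamini-Hochberg adjustment over all 21531 genes and a threshold of 0.05. The script was tested on simulated data. The methods of the study do not describe these arrays. Values of every array are given for called members, for the member with the smallest adjusted p in each step, and for Cpt1a, Bdh1 and Fgf21. Called pathway genes and the genes of ketone body metabolism are named, except some that are counted in their lists but not reported here. Members and lists were chosen with earlier results of these data known. Alternatives were each array left out, replicate number as a block, other variance priors and normalisations, and other choices of genes and transcript clusters.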

Additional observations from a re-analysis of the deposited data

How the results depend on the processing

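The positive sign was kept for every one of the 32 members under all alternatives except for Acsl1 (-0.0121 without refed 2, up to 0.0722 with another array left out), Hadh (-0.0175 without fasted 1 and -0.0004 without refed 2, up to 0.0869, and -0.0234 with fasted 3 and refed 2 both left out) and Etfb (-0.0014 without fasted 3 and -0.0112 without refed 2, up to 0.0505, and -0.0314 without both). The 3 called members became 5 with an intensity trend in the variance prior and 5 with dim genes left out, where Cpt1a (adjusted p = 0.015 and 0.0275) and Crat (0.0366 and 0.0325) were added. With quantile normalisation they were 4, with Cpt1a at 0.0256, and leaving out 1 array gave 1 to 3. The 8 called pathway genes became 15 with quantile normalisation and 14 with dim genes left out, and 2 to 8 with 1 array left out (2 without fasted 1, 3 without refed 3, 4 without fasted 2 and 4 without refed 1). The mitochondrial median ranged from 0.10 (without refed 2) to 0.23 (without refed 1), the peroxisomal median from 0.22 to 0.42 and the change of Bdh1 from 0.22 to 0.29. Some alternatives also left fewer genes or samples, and the cause of these shifts was not tested.

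No pairing by replicate number was seen, as deviations of same-numbered arrays correlated at 0.069, -0.229 and -0.335 across genes. Each deviation was taken from its condition mean, so these correlations depend on each other and cannot decide whether the numbers mark pairs. With the replicate number as a block, 2 members (Crot at an adjusted p of 0.0642 was lost) and 6 pathway genes were called, and Bdh1 had an adjusted p of 0.358. Signal over background could not be judged from summarised values, so small changes of dim genes such as Fgf21 and Pdk4 are least certain.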
